A study of Homo sapiens with 38 samples.

Results

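Antisense long noncoding RNA (lncRNA) genes were taken here as the genes that the annotation types as lncRNA and whose symbol ends in -AS and a number, such as OIP5-AS1. The name says that the gene lies on the strand opposite to a named partner, called the sense gene below. Of 58425 genes with a transcript in the quantified files, 1801 met this rule, of 15108 lncRNA genes in all, and 1628 of them end in -AS1. A sense gene of the same name was found for 1780 members, and it was protein coding for 1767. The choice used the annotation alone and no measured value.

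The RNA came from HCT116 cells, a human colorectal carcinoma line, grown in McCoy's medium with serum, split into nuclear and cytoplasmic fractions by detergent lysis, and sequenced as total RNA after removal of ribosomal RNA. Wild type cells were compared with 4 lines edited by CRISPR, which lacked AGO1 alone, AGO2 alone, both (AGO1/2), or both and AGO3 (AGO1/2/3), and every line gave 3 nuclear and 3 cytoplasmic libraries. The last pair of lines is called the double and the triple knockout below. Each genotype was 1 line and its 3 libraries were 3 passages, 27 to 29 in wild type, 6 to 8 in AGO1 knockout, 8 to 10 in AGO2 knockout, 9 to 11 in AGO1/2 knockout and 11, 12 and 14 in AGO1/2/3 knockout cells (the labels state the passage of each wild type library and a range of 6 to 14 for the knockout lines, whose single numbers were read from the sample titles), so that clone, passage and genotype cannot be told apart and p-values measure the spread between passages of a line. The 8 eCLIP samples of the series were not analysed here.

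Argonaute proteins bind a small RNA guide, most often a microRNA, and find target RNAs by pairing with it. In the cytoplasm this lowers the stability and translation of messenger RNA, and Argonaute proteins are also found in the nucleus. Antisense lncRNAs are transcribed across from, or away from the start of, another gene. Many are short-lived or held in the nucleus, some alter the transcription or splicing of their sense gene, and a few reach the cytoplasm, where they can bind microRNAs.

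The best-known microRNA site among these genes lies in OIP5-AS1, also called Cyrano, one of the members with the highest cytoplasmic levels in wild type cells. It is shown because it pairs with miR-7 over nearly its whole length, which makes it the clearest example here of an RNA that an Argonaute complex can bind. The mature miR-7 sequence is from RefSeq (GRCh38.p14), with its seed, bases 2 to 8, in capitals, and the site is from GRCh38, chr15:41300574-41300599 on the plus strand, in an exon of OIP5-AS1, with the seed match in capitals.
hsa-miR-7-5p: uGGAAGACuagugauuuuguuguu
OIP5-AS1 site: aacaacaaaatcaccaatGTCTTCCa
Read against each other, the site pairs with 14 bases at the 3′ end and 8 bases at the 5′ end of the 24-base microRNA. The 7-base match GTCTTCC alone occurs in a transcript of 334 of the 1801 antisense genes (18.5%), searched on the transcribed strand, and 3 times in the 8881-base OIP5-AS1 transcript that holds the site. The share over all genes was not computed, so this match is not shown to be particular to antisense genes. The longer site, with at least 12 paired bases of the 3′ end, was found in 2 of 62700 annotated genes, OIP5-AS1 and the microRNA gene MIR3529. miR-7 itself was not measured in these libraries.

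The starts of 6 further members are shown because the results below turn on these genes. Each window is from GRCh38, on the strand of the gene, with 15 bases before the annotated start in lower case and the first 15 transcribed bases in capitals.
MSRB3-AS1 (chr12:65642358-65642387, minus): cacacatttttaactGAGCTCATTGATCAT
NECTIN3-AS1 (chr3:111071539-111071568, minus): atattcttttcatccACTTTGATAACGGGG
FEZF1-AS1 (chr7:122303643-122303672, plus): acacacttcgcaagtGAAAACTTTGGGCTT
VIM-AS1 (chr10:17230004-17230033, minus): ctccagccccctcccGAGGCCCAGCTACTT
THAP9-AS1 (chr4:82900946-82900975, minus): cccacagtgcggcccGGCCCCGCCCCACGC
GABPB1-AS1 (chr15:50354929-50354958, plus): aagagatcaacttccACATCCGGTGGTAAC
The windows of VIM-AS1 and THAP9-AS1 are rich in G and C and that of MSRB3-AS1 is not. In RefSeq's 300-base promoter windows (250 bases before and 50 after a start) THAP9-AS1 held 32 CG dinucleotides and MSRB3-AS1 held 1. NECTIN3-AS1 and GABPB1-AS1 held 6 each, and the 2 windows of VIM-AS1 held at most 20.

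Antisense genes were placed around their sense gene in several ways, and the CG content of their promoters differed with the placement. Most lay inside the sense gene (809 members) or began near its start and ran the other way while overlapping it (head to head, 559). A further 243 overlapped it at the 3′ ends (tail to tail), 95 spanned it and 48 ran head to head without overlap. The remainder were 17 in other separate positions, 9 on the same strand as the gene of that name and 21 for which no gene of that name was found. Of 35116 RefSeq promoters, each counted singly, 56.4% held at least 10 CG dinucleotides. Of the 1261 members with a matched promoter 53.3% did, each taken at its window with the most CG dinucleotides, so these shares are not counted alike. The share of members was 91.2% for those head to head without overlap and 74.8% for those with overlap, against 28.8% for members inside the sense gene. No exon of 669 members lay over an exon of the opposite strand, and the others had at least 1 that did. The library kit keeps strand, but whether the quantification used it is not given in the sources used here, so reads of such a pair may not be told apart, and members without exon overlap are given separately where it matters.

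Estimated reads per library ran from 20431557 to 26536692 in nuclear and 39476205 to 43281746 in cytoplasmic wild type libraries, and from 31252459 to 54097984 and 66451720 to 79731793 in the knockout libraries, so the wild type libraries were the shallowest of each fraction. AGO1 RNA was 9.34 to 12.6 TPM (transcript abundance scaled to transcript length and library size) in nuclear wild type libraries and 2.39 to 4.13 TPM in those of the 3 lines edited in AGO1. In the cytoplasm these ranges were 10.7 to 14.4 and 0.807 to 1.02 TPM. On the count scale AGO2 RNA was lower in AGO2 knockout cells by log2 -0.473 ± 0.0775 (SE) in nuclear and -0.668 ± 0.0725 in cytoplasmic RNA. In AGO1/2 knockout cells it was called higher in the cytoplasm (0.307 ± 0.0722). AGO3 RNA in AGO1/2/3 knockout cells was -0.301 ± 0.0609 in the nucleus and 0.337 ± 0.0744 in the cytoplasm. In TPM these cytoplasmic rises were not seen. AGO2 had 28.6 to 29.2 TPM in AGO1/2 knockout against 31.1 to 39.8 in wild type cytoplasm, which was lower. AGO3 had 8.02 to 9.33 TPM in AGO1/2/3 knockout against 6.62 to 9.53 in wild type cytoplasm. A small edit can leave RNA in place, so these levels do not check the AGO2 and AGO3 edits. Of 8 colon epithelium markers, 5 averaged at least 1 TPM, with KRT20, VIL1 and CDH17 below it, and CDH1 ran from 0.681 to 29.8 TPM over the libraries. No marker of white blood cells (0 of 4) or endothelium (0 of 3), and of 5 fibroblast markers COL1A1 alone, reached 1 TPM, and the summed levels were at most 0.201, 0.182 and 6.34 TPM.

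Antisense genes took a small share of the reads, larger in the nucleus than in the cytoplasm, and the nuclear share was lower in every knockout line than in wild type cells. In nuclear wild type libraries they held 0.312%, 0.320% and 0.339% of estimated reads. The share was 0.263% to 0.276% in AGO1 knockout, 0.242% to 0.253% in AGO2 knockout, 0.153% to 0.178% in AGO1/2 knockout and 0.184% to 0.204% in AGO1/2/3 knockout cells. No knockout library overlapped the wild type range. The means ± SD (n = 3) were 0.324% ± 0.0139 in wild type, 0.165% ± 0.0124 in AGO1/2 knockout and 0.192% ± 0.0107 in AGO1/2/3 knockout cells, and each of the 4 differences from wild type had p = 0.1 in an exact two-sided permutation test, the smallest that 3 libraries against 3 allow. Cytoplasmic shares lay between 0.0983% and 0.113% in all 5 lines and overlapped (exact permutation p of 0.3 to 0.9). Summed nuclear TPM was 1536 ± 41.1 in wild type, 957 ± 16.0 in double and 960 ± 54.3 in triple knockout cells, and summed cytoplasmic TPM 656 ± 27.9, 503 ± 21.5 and 538 ± 13.4. Unlike the read share, summed cytoplasmic TPM did not overlap between wild type (626.4 to 682.1) and the knockout libraries of the 4 lines (at most 587.4).

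**Figure D1:**
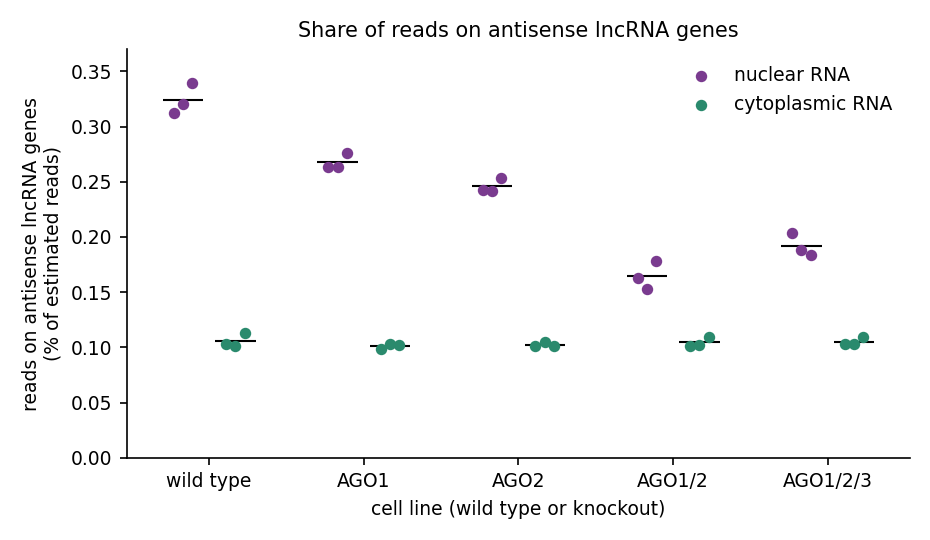
Share of estimated reads on the 1801 antisense lncRNA genes (y axis, %) in each of the 5 lines (x axis), with 1 point per library, nuclear RNA in purple, cytoplasmic RNA in green and a black line at the mean of 3 libraries. Nuclear shares were 0.312% to 0.339% in wild type and 0.153% to 0.178% in AGO1/2 knockout cells, while cytoplasmic shares stayed between 0.0983% and 0.113%.

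A few genes supplied much of this RNA. In nuclear wild type libraries GABPB1-AS1, with 1 exon block, which begins head to head with GABPB1, a subunit of a transcription factor of mitochondrial genes, held 15.0% of the reads of all members, and the 10 leading genes held 39.7%. In the cytoplasm OIP5-AS1 led with 13.6%. Across the 30 libraries 468 members had no read at all, and 316 members averaged at least 20 reads in nuclear and 250 in cytoplasmic wild type libraries.

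By level per length the leading nuclear members of wild type cells were THAP9-AS1 at 64.9, 70.1 and 73.0 TPM and GABPB1-AS1 at 60.7, 65.7 and 53.0 TPM. The lowest THAP9-AS1 library lay below the highest of GABPB1-AS1, and both lay above all the members that follow. These were PSMA3-AS1 (36.1 to 42.3 TPM), PCBP1-AS1 (28.5 to 45.7), NUTM2B-AS1 (28.2 to 40.8), NUTM2A-AS1 (24.4 to 39.3), OIP5-AS1 (29.4 to 32.2) and THUMPD3-AS1 (27.2 to 31.1), whose ranges overlapped from each to the next. NUTM2A-AS1 and NUTM2B-AS1 are near-identical copies, so the split of reads between them is uncertain. In the cytoplasm OIP5-AS1 (22.7 to 28.8 TPM), THAP9-AS1 (22.4 to 32.5), EPB41L4A-AS1 (16.4 to 31.6) and FGD5-AS1 (17.7 to 19.3) led, followed by PITPNA-AS1 (14.1 to 14.7), MAPKAPK5-AS1 (10.5 to 16.8), NR2F1-AS1 (11.4 to 13.6) and BCAN-AS2 (9.70 to 17.3), again with overlapping neighbours except between FGD5-AS1 and PITPNA-AS1.

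Antisense genes were mostly nuclear, though less so than other lncRNA genes. In wild type cells 442 members were tested for nuclear against cytoplasmic RNA, and 261 were higher and 46 lower in the nucleus (edgeR's quasi-likelihood test, Benjamini-Hochberg adjusted p of at most 0.05 over all genes). Of all 17523 genes tested, 35.9% were called higher and 34.8% lower. The median log2 ratio was 1.10 for antisense genes, 2.36 for 2218 other lncRNA genes and -0.268 for 13142 protein-coding genes. These ratios are relative to the total RNA of each library and are not copies per cell.

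The order of these classes was the same in each line, and the antisense median was smallest in double knockout cells. In AGO1 knockout cells 306 of 483 members were higher and 70 lower in the nucleus (40.9% and 39.3% of all genes), with a median of 1.07. For AGO2 knockout cells the counts were 285 and 78 of 483 (40.4% and 40.1%) and the median 0.876. In AGO1/2 knockout cells they were 195 and 102 of 488 (36.6% and 33.5%) and 0.341, and in AGO1/2/3 knockout cells 257 and 95 of 505 (38.1% and 38.1%) and 0.579. The split depended on the unit: with limma on log2(TPM + 1) it was 334 higher and 39 lower in AGO2, 346 and 27 in double and 327 and 44 in triple knockout cells, or 89.5%, 92.8% and 88.1% of the calls higher, where 77.3%, 93.5% and 82.8% of the calls over all genes were higher. On that scale the median of all genes moved by 0.509 in double and 0.343 in triple knockout cells, and the antisense median came to lie below that of all genes by 0.247 and 0.0745.

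**Figure D2:**
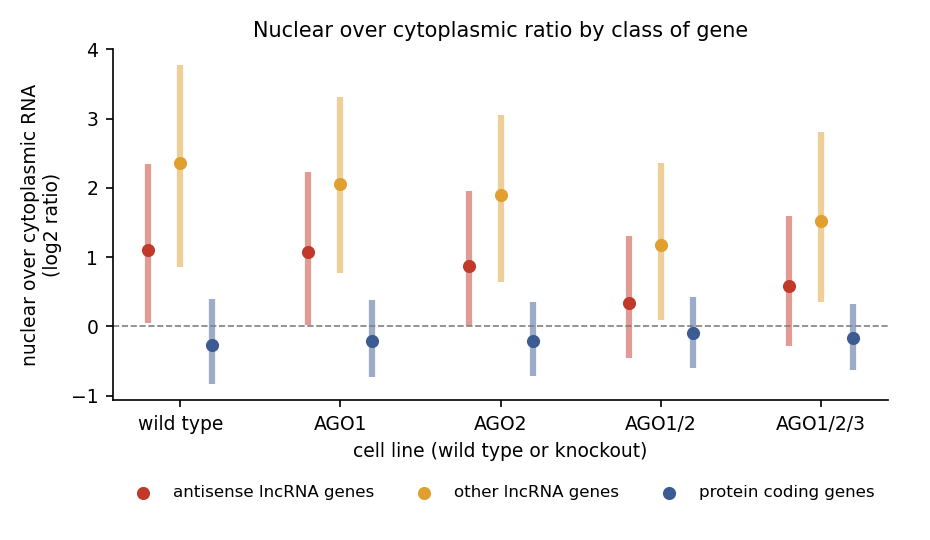
Nuclear over cytoplasmic log2 ratio (y axis) in each of the 5 lines (x axis) for antisense lncRNA genes (red), other lncRNA genes (yellow) and protein-coding genes (blue), with a point at the median gene and a bar from the lower to the upper quartile. The antisense median was 1.10 in wild type and 0.341 in AGO1/2 knockout cells and lay between those of the other classes in each line.

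Single members kept their place between fractions. Of 405 members tested in all 5 lines, 173 were called nuclear in each, 35 cytoplasmic in each, and 8 were called in opposite directions in different lines (42.7%, 8.64% and 1.98%). Over all 16466 genes tested in each line these shares were 27.1%, 27.3% and 3.63%. Pearson's r of the log2 ratios between 2 lines was 0.917 to 0.95 over 419 to 475 genes, which are not independent replicates, and no library entered both sides. Members with 5 or more exon blocks had a median ratio of 1.38 in wild type cells, against 0.776 for 2 to 4 blocks and 1.05 for 1 block, and the 43 tested members that spanned their sense gene had a median of 2.03.

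SLC16A4-AS1, with 1 exon block inside the gene of a monocarboxylate carrier family member, was the most nuclear of the members with a mean of at least 20 reads. It had 8.94, 8.85 and 6.52 TPM in nuclear and 0.0622, 0.0929 and 0.0583 TPM in cytoplasmic wild type RNA, a log2 ratio of 6.30 ± 0.207 (SE). All nuclear libraries lay far above all cytoplasmic ones. FAM13A-AS1 (5.21 ± 0.328), PRKCH-AS1 (5.06 ± 0.397), PSMD6-AS2 (4.74 ± 0.398), SEMA6A-AS1 (4.58 ± 0.401) and SCUBE3-AS1 (4.55 ± 0.261) followed, and among these 6 the adjusted p-values of edgeR's test were at most 4.5e-05. Of the 6, 4 lay inside their sense gene (SLC16A4-AS1, PRKCH-AS1, SEMA6A-AS1 and SCUBE3-AS1), and the other two overlapped it tail to tail.

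Cytoplasmic members showed smaller ratios. PIK3CD-AS2, named for a catalytic subunit of phosphoinositide 3-kinase, had 2.93, 3.09 and 3.33 TPM in cytoplasmic and 1.05, 1.43 and 1.55 TPM in nuclear wild type RNA, and the libraries did not overlap (log2 ratio -1.73 ± 0.232, adjusted p = 3.6e-04 by edgeR). ST3GAL6-AS1 was at -1.75 ± 0.359, though on the TPM scale its lowest cytoplasmic library (0.742) lay below its highest nuclear one (0.751). URB1-AS1 (-1.65 ± 0.189), DGUOK-AS1 (-1.64 ± 0.225), MIF-AS1 (-1.63 ± 0.327) and AGAP2-AS1 (-1.58 ± 0.186) completed the 6 most cytoplasmic members. MIF-AS1 has 46.5% of its exonic bases over exons of the opposite strand.

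More antisense RNAs were lower in the nuclei of double knockout cells than in those of either single knockout. In nuclear AGO1/2 knockout RNA 254 of 521 tested members were lower than in wild type and 26 higher, where 34.7% of all 18919 genes were lower and 32.9% higher (edgeR's quasi-likelihood test). In triple knockout cells 172 were lower and 37 higher (29.5% and 29.1% of all genes). For AGO2 knockout cells the counts were 92 lower and 21 higher (19.9% and 20.2%), and for AGO1 knockout cells 56 and 24 (15.6% and 14.3%). The median log2 changes of the members were -0.109 for AGO1, -0.135 for AGO2, -0.568 for double and -0.34 for triple knockout cells. For 2708 other lncRNA genes they were -0.183, -0.293, -0.815 and -0.567, and for 13601 protein-coding genes 0.00422, 0.0584, 0.155 and 0.117. The 4 comparisons share the 3 wild type libraries.

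The single-knockout splits, and the size of the shift in double and triple knockout cells, depended on the unit. With limma on log2(TPM + 1) they were 10 higher and 115 lower in AGO1 and 11 and 157 in AGO2 knockout cells, with the median of all genes lower by 0.132 and 0.148, and relative to all genes the antisense median turned positive (0.029 and 0.0224). Calls over all genes were mostly lower too on this scale, with 5.9% and 9.71% of them higher against 8.0% and 6.55% for the members. With counts scaled by transcript length the splits were 25 and 27, and 25 and 55. For AGO1/2 knockout cells the split was 26 and 244 on the TPM scale and 31 and 198 on length-scaled counts. For AGO1/2/3 knockout cells it was 24 and 237, and 45 and 127. Relative to all genes the antisense median was -0.14 in double and -0.0464 in triple knockout cells on the TPM scale. On length-scaled counts it was -0.417 and -0.273. Of the calls over all genes on the TPM scale 42.7% and 26.5% were higher, against 9.63% and 9.2% for the members. Without the members that have an exon over an opposite exon, 102 were left to test, of which 60 were lower and 1 higher in double and 39 lower and 5 higher in triple knockout cells.

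Nuclear marker RNAs moved with these counts. The log2 ratio of nuclear over cytoplasmic MALAT1, a nuclear lncRNA, was 3.87 in wild type cells and 2.81, 2.73, 2.15 and 2.52 in AGO1, AGO2, double and triple knockout cells, that of NEAT1, the lncRNA of paraspeckles, was 3.93, 3.09, 3.01, 2.65 and 2.94, and that of GAPDH, a cytoplasmic messenger RNA, was -1.16, -0.768, -0.828, -0.165 and -0.571. In nuclear RNA MALAT1 fell by 1.18 ± 0.124 on the log2 scale in AGO1/2 knockout cells and GAPDH rose by 1.11 ± 0.0818. The part of the separation of fractions in the antisense counts was not tested.

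The nuclear change was larger for members that were more nuclear. To rank the members without the libraries of the comparisons, their nuclear over cytoplasmic ratio was taken from AGO1 knockout cells, and 472 genes were split into 4 sets of 118. From the least to the most nuclear set the median log2 change in nuclear AGO1/2 knockout RNA was -0.149, -0.48, -0.725 and -0.865, with 26, 55, 74 and 86 members lower and 13, 6, 3 and 2 higher, beside the 34.7% and 32.9% of all genes given above. In AGO1/2/3 knockout cells the medians were -0.0735, -0.233, -0.509 and -0.587 (16, 40, 50 and 59 lower and 17, 8, 5 and 3 higher). The AGO2 knockout gave 0.0825, -0.109, -0.231 and -0.281. Pearson's r of change against ratio was -0.357, -0.305 and -0.227 over these genes, which share libraries and are not replicates.

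**Figure D3:**
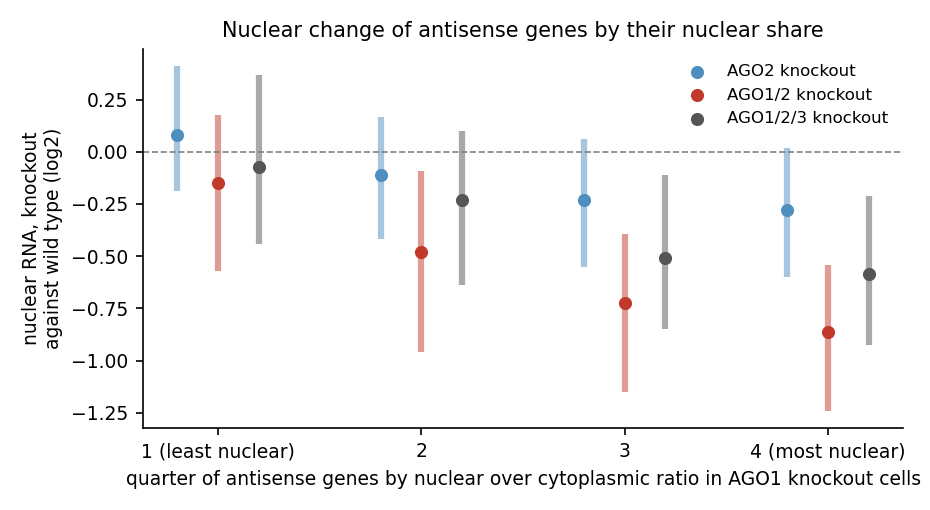
Log2 change of nuclear RNA against wild type (y axis) for 472 antisense lncRNA genes in 4 equal sets by their nuclear over cytoplasmic ratio in AGO1 knockout cells (x axis), with a point at the median and a bar from the lower to the upper quartile for AGO2 (blue), AGO1/2 (red) and AGO1/2/3 (grey) knockout cells. The AGO1/2 medians ran from -0.149 in the least nuclear to -0.865 in the most nuclear set.

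Of the 521 members tested in nuclear RNA, 31 were lower in all 4 knockout lines, 2 were higher in all 4, and 177 were called in none (5.95%, 0.384% and 34.0%). Of all 18919 genes 6.67% were lower in all 4, 6.71% higher in all 4 and 20.2% called in none, so the share lower in each was near that of all genes. NECTIN3-AS1 alone was called in the same direction in all 8 comparisons of the nucleus and the cytoplasm, among the 444 members tested in each, where 0.496% of all 16723 genes were lower in all 8. It begins head to head with NECTIN3, a cell adhesion gene, and none of its exonic bases lie over an exon of the opposite strand. Its nuclear level was 3.29, 3.22 and 2.85 TPM in wild type and 0.400, 0.398 and 0.204 TPM in AGO1/2/3 knockout libraries, and its cytoplasmic level 2.16, 1.75 and 2.45 against 0.518, 0.412 and 0.553 TPM. Every knockout library was below every wild type library in both fractions, and the log2 fold changes were -2.93 ± 0.275 (SE) in the nucleus and -1.96 ± 0.208 in the cytoplasm (adjusted p = 3.4e-07 and 4.5e-06 by edgeR). In AGO1 knockout cells it was less reduced (-0.98 ± 0.24 in the nucleus).

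MSRB3-AS1, which overlaps the 3′ end of the methionine sulfoxide reductase gene MSRB3, had the largest fall of the named members. Its nuclear level was 28.6, 28.9 and 30.9 TPM in wild type, 1.24, 1.51 and 1.73 TPM in AGO2 knockout, 0.435, 0.790 and 0.386 TPM in AGO1/2 knockout and 0.333, 0.596 and 0.642 TPM in AGO1/2/3 knockout libraries. The 3 lines edited in AGO2 lay far below wild type, while the change in AGO1 knockout cells missed the threshold (log2 -0.11 ± 0.14, adjusted p = 0.605 by edgeR). Its log2 fold change in nuclear RNA was -4.16 ± 0.179 in AGO2, -5.91 ± 0.206 in double and -5.68 ± 0.205 in triple knockout cells. The sense gene MSRB3 was called lower in AGO2 knockout nuclei (-0.29 ± 0.108) and higher in those of AGO1 (0.39 ± 0.107), double (0.86 ± 0.105) and triple knockout cells (0.36 ± 0.106).

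FEZF1-AS1, inside the annotated span of the transcription factor gene FEZF1 and often raised in colorectal tumours, had 3.87, 3.89 and 5.06 TPM in nuclear wild type, 2.59, 2.67 and 2.28 in AGO2 knockout and 0.330, 0.466 and 0.395 TPM in AGO1/2/3 knockout libraries. The libraries of the 3 groups did not overlap, and the log2 fold change was -0.56 ± 0.141 in AGO2 and -3.25 ± 0.17 in AGO1/2/3 knockout cells. HMGA2-AS1 (-1.92 ± 0.265), FAM13A-AS1 (-1.82 ± 0.208) and PRKG1-AS1 (-1.77 ± 0.279) were the other members with the largest nuclear falls in AGO1/2/3 knockout cells. HMGA2-AS1 lies inside HMGA2, the gene of a chromatin protein and a known let-7 target. HMGA2 itself was 0.10 ± 0.0876 in nuclear RNA, not called, and rose by 1.27 ± 0.102 in cytoplasmic RNA.

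Fewer members rose in the nucleus, and VIM-AS1 led those with a mean of at least 20 reads. It begins head to head with VIM, the vimentin gene of mesenchymal cells. Its nuclear level was 0.443, 0.389 and 0.556 TPM in wild type and 3.70, 3.51 and 3.52 TPM in AGO1/2/3 knockout libraries, with no overlap (log2 3.09 ± 0.198, adjusted p = 6.7e-09 by edgeR). VIM changed by 3.73 ± 0.12, and 32.4% of the exonic bases of VIM-AS1 lie over opposite exons. In AGO1 and AGO2 knockout nuclei VIM-AS1 was 0.42 ± 0.236 and -0.48 ± 0.255, neither called.

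CCDC144NL-AS1 (2.45 ± 0.302), DENND5B-AS1 (1.64 ± 0.341), SSTR5-AS1 (1.42 ± 0.313), CFLAR-AS1 (1.27 ± 0.367) and NUP153-AS1 (1.18 ± 0.361) were the next highest in nuclear AGO1/2/3 knockout RNA. All were low, with wild type libraries between 0.0921 and 1.35 TPM. On the TPM scale SSTR5-AS1 was 1.35, 1.14 and 1.24 in wild type and 1.98, 1.35 and 2.63 in AGO1/2/3 knockout libraries, which meet. Without passage 12 of the AGO1/2/3 knockout line NUP153-AS1 was at 0.749 and no longer called, and 51.9% of its exonic bases lie over opposite exons.

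**Figure D4:**
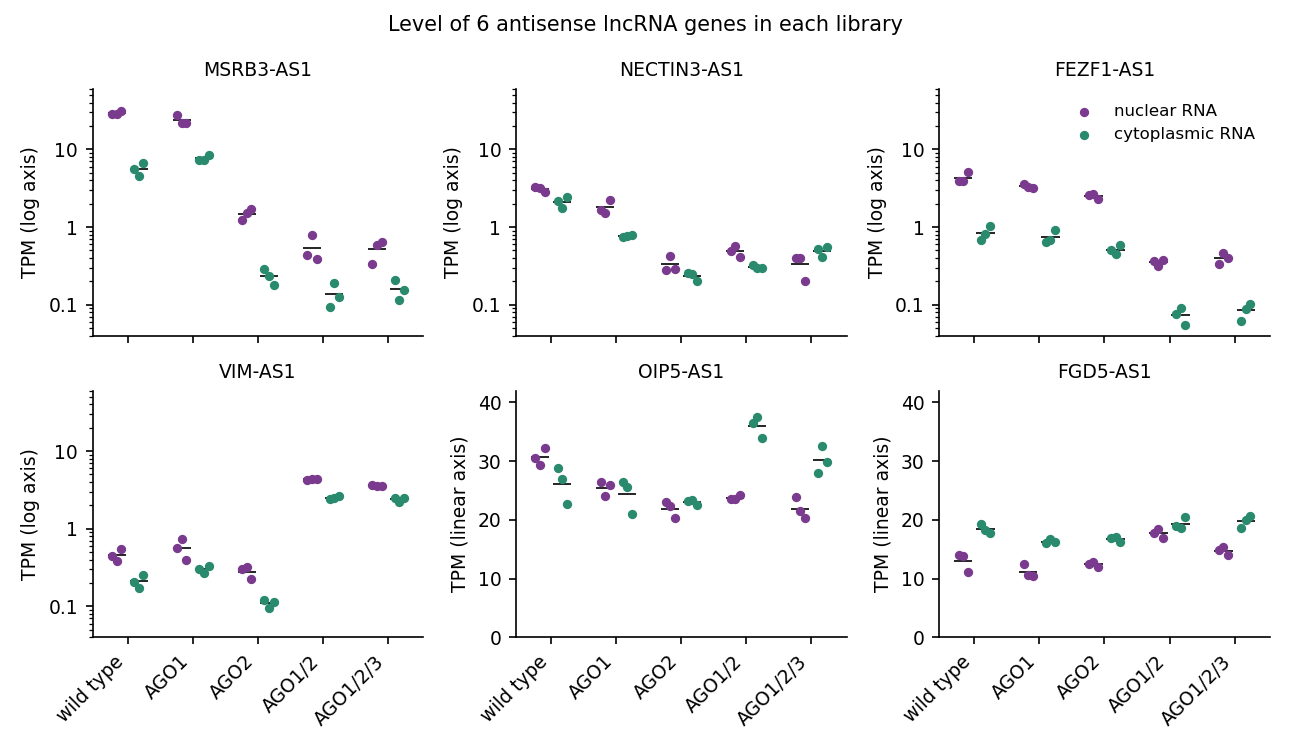
TPM of 6 antisense lncRNA genes (y axis, log axis for MSRB3-AS1, NECTIN3-AS1, FEZF1-AS1 and VIM-AS1, linear axis from 0 for OIP5-AS1 and FGD5-AS1) in each of the 5 lines (x axis), 1 point per library, nuclear RNA in purple, cytoplasmic RNA in green, and a black line at the mean of 3. Nuclear MSRB3-AS1 drops from 28.6 to 30.9 TPM in wild type to 1.24 to 1.73 TPM in AGO2 knockout cells, and nuclear VIM-AS1 stands at 3.51 to 3.70 TPM in AGO1/2/3 knockout against 0.389 to 0.556 TPM in wild type cells.

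In the cytoplasm fewer members changed, and with the counts as deposited the calls were near balance. In double knockout cells 71 of 493 tested members were higher and 65 lower, where 23.9% of all 17605 genes were higher and 25.4% lower (edgeR's quasi-likelihood test). The counts were 53 and 50 in AGO1/2/3 knockout (18.6% and 20%), 23 and 25 in AGO2 knockout (7.07% and 9%) and 15 and 20 in AGO1 knockout cells (4.28% and 8.13%). Median log2 changes were -0.0332 for AGO1, 0.0335 for AGO2, 0.0253 for double and 0.0444 for triple knockout cells. The balance was not kept with limma on log2(TPM + 1), where the splits were 13 higher and 46 lower, 9 and 67, 30 and 155, and 30 and 102 in the order AGO1, AGO2, double and triple, and the median of all genes shifted by -0.131, -0.194 and -0.117 in the last 3. Of the members' calls on this scale 22.0%, 11.8%, 16.2% and 22.7% were higher, against 7.34%, 5.99%, 13.4% and 17.7% of the calls over all genes. Length-scaled counts gave 6 and 18 in AGO1 knockout cells. No call in any of the 4 cytoplasmic comparisons was made for 300 members (60.9%, against 39.1% of all genes).

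Of the 8 members with the largest cytoplasmic changes in triple knockout cells, 5 were also among the 12 of the nucleus. In AGO1/2/3 knockout cells VIM-AS1 (3.75 ± 0.166), SNAI3-AS1 (2.42 ± 0.2), LIF-AS1 (2.35 ± 0.389) and CCDC144NL-AS1 (2.28 ± 0.259) rose most, and MSRB3-AS1 (-4.92 ± 0.249), FEZF1-AS1 (-3.33 ± 0.304), NECTIN3-AS1 (-1.96 ± 0.208) and GLIPR1-AS1 (-1.11 ± 0.248) fell most. LIF-AS1, across from the cytokine gene LIF, had 0.213, 0.109 and 0.308 TPM in wild type and 0.832, 1.13 and 0.800 TPM in AGO1/2/3 knockout cytoplasm. SNAI3-AS1 had 0.377, 0.276 and 0.287 against 1.05, 1.53 and 1.52 TPM. Neither pair of groups overlapped, which the rule for naming these members also required on the count scale. LIF-AS1 rose in triple knockout nuclei as well (3.32 ± 0.396), from 2, 2 and 1 reads in the wild type libraries to 36, 28 and 19. In AGO1 knockout cytoplasm it was called lower, with 0, 0 and 3 reads against 7, 4 and 12 in wild type.

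OIP5-AS1, whose miR-7 site is printed above, rose in the cytoplasm of the lines that lacked AGO1 and AGO2 together. Its cytoplasmic level was 28.8, 27.0 and 22.7 TPM in wild type, 36.5, 37.6 and 33.9 TPM in AGO1/2 knockout and 28.0, 32.6 and 29.9 TPM in AGO1/2/3 knockout libraries. AGO1/2 knockout libraries lay above wild type, while 1 AGO1/2/3 knockout library fell within its range. The log2 fold changes were 0.72 ± 0.0866 and 0.46 ± 0.0864 (adjusted p = 9.7e-06 and 7.5e-04 by edgeR). In AGO1 and AGO2 knockout cytoplasm they were -0.05 ± 0.0863 and -0.21 ± 0.0864, and in nuclear double and triple knockout RNA -0.14 ± 0.0862 and -0.11 ± 0.0863, none of them called. On the TPM scale, however, nuclear OIP5-AS1 was lower in the double and triple knockout without overlap. It had 29.4 to 32.2 TPM in wild type, 23.5 to 24.3 in AGO1/2 and 20.4 to 23.9 in AGO1/2/3 knockout libraries. In AGO2 knockout nuclei OIP5-AS1 fell by 0.31 ± 0.0865, and its nuclear over cytoplasmic ratio was lower in triple knockout cells by the interaction test described below (-0.60 ± 0.153). The 3 transcripts with the site, of 10 quantified, carried 78.4% to 86.2% of OIP5-AS1 TPM in the cytoplasm, 42.6% to 45.9% in wild type nuclei and 53.3% to 60.1% in double and triple knockout nuclei.

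FGD5-AS1, another cytoplasmic lncRNA described as a binder of microRNAs, was called higher in both fractions on the count scale. The nuclear log2 fold changes were 0.54 ± 0.0552 in double and 0.48 ± 0.0553 in triple knockout cells, and the cytoplasmic ones 0.49 ± 0.0557 and 0.35 ± 0.0556. In cytoplasmic TPM the groups overlapped, with 17.7 to 19.3 in wild type and 18.6 to 20.7 in AGO1/2/3 knockout libraries.

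Whether the fraction ratio of a gene differed between AGO1/2/3 knockout and wild type cells was tested as an interaction. Of 525 members 56 had a lower nuclear over cytoplasmic ratio in the knockout and 0 a higher one (edgeR's quasi-likelihood test), where 6.64% of all 18916 genes were lower and 10.3% higher. DESeq2 gave 64 lower and 0 higher, and limma on log2(TPM + 1) 95 and 3. The median over members was -0.332, for other lncRNA genes -0.471 and for protein-coding genes 0.141. MALAT1 moved with it at -1.29 ± 0.247 (adjusted p = 0.00591 by edgeR).

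SEMA6A-AS1, inside a semaphorin gene, had the largest such change among the called members with a mean of at least 20 reads (-2.35 ± 0.507). Its nuclear level was 7.48, 7.77 and 3.97 TPM in wild type and 1.95, 1.52 and 1.56 TPM in AGO1/2/3 knockout libraries, and its cytoplasmic level 0.267, 0.241 and 0.0818 against 0.194, 0.404 and 0.222 TPM. The nuclear groups did not overlap and the cytoplasmic groups did. A2M-AS1 (-2.30 ± 0.528) and OR2A1-AS1 (-1.69 ± 0.385) followed. OR2A1-AS1 shares 41% of its exonic bases with other genes of the same strand, so its reads are uncertain.

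Changes of an antisense gene and its sense gene went together weakly. Over 451 pairs in nuclear RNA Pearson's r of the log2 changes was 0.213 for AGO1, 0.267 for AGO2, 0.297 for double and 0.333 for triple knockout cells, and over 429 pairs in cytoplasmic RNA 0.277, 0.206, 0.247 and 0.261. Pairs are not independent replicates, and the members of a pair were measured in the same libraries. In nuclear AGO1/2/3 knockout RNA r was 0.457 for 221 overlapping head to head pairs and 0.465 for 79 pairs with the antisense gene inside the sense gene, against 0.166 for 90 tail to tail pairs, -0.0641 for 27 spanning pairs and -0.0991 for 28 head to head pairs without overlap. Exon overlap did not separate the pairs: r was 0.326 for 361 pairs with an exon over an opposite exon and 0.357 for 90 without. Among pairs within 2 log2 units r was 0.274 over all pairs and 0.262 over head to head pairs. In the same range r was lower than over all pairs in the other 3 nuclear comparisons (0.191, 0.257 and 0.252 in AGO1, AGO2 and double knockout cells) and in AGO1 knockout cytoplasm (0.193), and higher in that of AGO2 (0.289), double (0.25) and triple knockout cells (0.313).

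**Figure D5:**
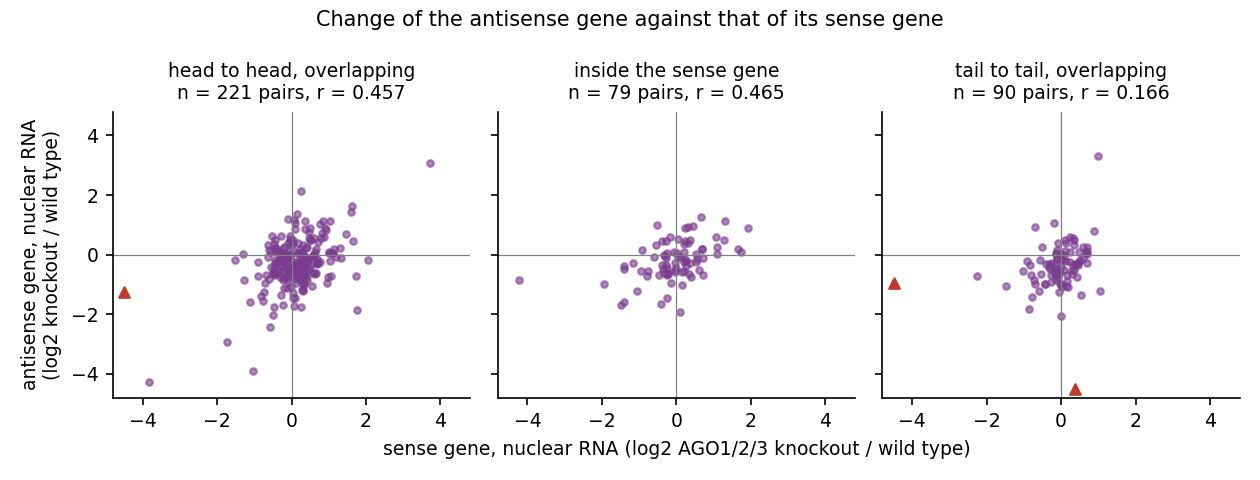
Log2 change in nuclear AGO1/2/3 knockout RNA of the antisense gene (y axis) against that of its sense gene (x axis), 1 point per pair, for pairs that overlap head to head, with the antisense gene inside the sense gene, or tail to tail. Red triangles are pairs beyond the axis range, drawn at its edge. Pearson's r was 0.457, 0.465 and 0.166.

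Where both partners of a pair changed in nuclear AGO1/2/3 knockout RNA (105 pairs), 48 were lower together, 23 higher together, 33 had a lower antisense and a higher sense gene, and 1 the reverse. In AGO1/2 knockout RNA the 169 such pairs divided into 76, 15, 76 and 2. Whatever their partner did, 33% of antisense genes tested were lower and 7.1% higher in triple knockout nuclei. For protein-coding genes these shares were 24.1% and 38.5%. In double knockout nuclei they were 48.8% and 4.99% for antisense and 25.8% and 43.8% for protein-coding genes. Whether the pairs depart from these shares was not tested. Among same-direction pairs, VIM-AS1 and VIM stood at 3.09 and 3.73, NECTIN3-AS1 and NECTIN3 at -2.93 and -1.73, PARM1-AS1 and PARM1 at -1.69 and -1.49, and DENND5B-AS1 and DENND5B at 1.64 and 1.63. Opposite exons cover 38.8% of the exonic bases of DENND5B-AS1 and 32.4% of VIM-AS1, but 0% of NECTIN3-AS1 and PARM1-AS1. DENND5B-AS1 had 12, 5 and 7 reads in nuclear wild type libraries, against 2345, 2063 and 1428 for DENND5B. Reads of that pair may not be told apart. Of the opposite pairs, NR2F2-AS1, which begins near the nuclear receptor gene NR2F2, had 18.2, 15.1 and 15.7 TPM in nuclear wild type and 11.1, 9.34 and 8.38 TPM in AGO1/2/3 knockout libraries (-0.72 ± 0.105). NR2F2 had 36.7, 33.7 and 25.6 against 59.7, 55.6 and 59.9 TPM (1.05 ± 0.126). PRDX6-AS1 and the peroxiredoxin gene PRDX6 were at -0.74 and 1.41, RNF213-AS1 and RNF213 at -1.22 and 1.05, and MMP25-AS1 and MMP25 at -0.73 and 1.72.

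In 2 further pairs the sense gene fell much further than its antisense gene, and these were chosen after their values were seen. TTN, the gene of the giant muscle protein titin, had 5.32, 4.97 and 3.54 TPM in nuclear wild type and at most 0.00346 TPM in AGO1/2/3 knockout libraries (log2 -8.57 ± 0.177). TTN-AS1 had 22.3, 25.5 and 20.6 against 12.4, 9.42 and 8.62 TPM (-0.95 ± 0.0862), although 55.5% of its exonic bases lie over opposite exons. EPB41L4A fell by 4.22 ± 0.696 and EPB41L4A-AS1 by 0.85 ± 0.101. EPB41L4A-AS1 lies inside EPB41L4A with 49.1% of its exonic bases over opposite exons, so reads of this pair may not be told apart. EPB41L4A had 223, 188 and 196 reads in nuclear wild type libraries but 194, 36 and 210 in those of AGO2 knockout cells.

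Fraction ratios of partners were weakly related. In wild type cells r was 0.103 over 375 pairs. In 87 of the 173 pairs with both partners called the antisense RNA was nuclear and the sense RNA cytoplasmic, and in 11 pairs it was the reverse. Over these 173 pairs 144 antisense RNAs were nuclear and 105 sense RNAs cytoplasmic, whichever way their partner lay.

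A list of 24 well-studied antisense genes, chosen with earlier results of these data known, was described for itself. In nuclear RNA 19 were tested, of which 14 were lower and 1 higher in AGO1/2 knockout and 12 and 1 in AGO1/2/3 knockout cells, with medians of -0.479 and -0.437, and the 1 higher gene was FGD5-AS1 in each. Of all antisense genes tested 48.8% and 33% were lower, and of all genes 34.7% and 29.5%. In AGO2 knockout cells 8 were lower and 2 higher (19.9% and 20.2% of all genes), and in AGO1 knockout cells 1 and 1 (15.6% and 14.3%). In cytoplasmic RNA 21 were tested, with 5 higher and 2 lower in AGO1/2 knockout cells (23.9% and 25.4% of all genes). For AGO1/2/3 knockout cells the counts were 3 and 4 (18.6% and 20%). They were 1 and 2 (7.07% and 9%) in AGO2 and 2 and 1 (4.28% and 8.13%) in AGO1 knockout cells. In wild type cells 12 of 19 were nuclear and 5 cytoplasmic, beside 59% and 10.4% of antisense genes tested and 35.9% and 34.8% of all genes.

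CDKN2B-AS1, also known as ANRIL, spans the cell cycle inhibitor gene CDKN2B. It had 1.80, 1.66 and 1.03 TPM in nuclear wild type and 0.705, 0.780 and 0.604 TPM in AGO1/2/3 knockout libraries, without overlap (-1.07 ± 0.162), and its nuclear over cytoplasmic ratio was lower in the knockout by the interaction test (-1.50 ± 0.303, adjusted p = 0.00765 by edgeR). MAPKAPK5-AS1 was lower in both fractions of AGO1/2/3 knockout cells (-0.40 ± 0.0941 and -0.49 ± 0.112). Beside these and MSRB3-AS1 and TTN-AS1, given above, the list members that fell in nuclear AGO1/2/3 knockout RNA were SLC25A25-AS1 (-1.08), PSMD6-AS2 (-1.07), MNX1-AS1 (-0.67), PRKCQ-AS1 (-0.66), THAP9-AS1 (-0.59), FOXD2-AS1 (-0.56), TMPO-AS1 (-0.44) and KTN1-AS1 (-0.39). VPS9D1-AS1 (0.02), ZEB1-AS1 (-0.11), MCM3AP-AS1 (-0.14), PXN-AS1 (-0.28), HOXA-AS2 (-0.29) and OIP5-AS1 (-0.11) were not called there. NNT-AS1, GATA6-AS1 and AFAP1-AS1, all studied in other tumours, had wild type means of at most 0.0478 TPM in either fraction, and HOXB-AS3 had 0.146 and 0.141.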

How the data were processed

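RNA-seq from 30 libraries was used. Per the labels and the study's methods, the authors aligned reads to hg38 with STAR (2.5.3a in the submitters' processing notes) and quantified transcripts with Salmon (0.11.0 in those notes). The methods give other versions of both tools. The deposited estimated counts (NumReads) are Salmon's reads per transcript without normalization between libraries, and the deposited TPM values are scaled by the authors' run of Salmon to effective length and library. Use of strand is not given in the sources used here, and the GENCODE release number in the study's methods could not be matched to a release for hg38. Transcripts were matched without version to GENCODE release 44. Of 200401 transcripts 97.82% matched, the others held 2.23% to 4.01% of reads and were left out, and 15 of 1816 annotated members had no transcript in the files. ACTB had lost its main transcript in this way and was not used as a marker. No column of another sample was present (0 unused).

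Estimated counts were summed per gene and rounded. edgeR 4.0.16 (R 4.3.3; TMM, filterByExpr with a minimum count of 10, quasi-likelihood test) was fitted over all genes, using all 15 libraries per fraction for knockouts and the 6 of a line for fractions. Calls needed an adjusted p (Benjamini-Hochberg) of at most 0.05. Alternatives were DESeq2 1.42.0, its size factors in edgeR, limma 3.58.1 on log2(TPM + 1), length-scaled counts, no low-count filter, a mean of 50 reads, members without exon overlap, 2 groups alone, each library left out, and passage as a block. The tests recovered known changes in counts simulated with the spread that edgeR had fitted, which checks the code and not the calls in these data. Python 3.11.15 and scipy 1.17.1 served for the rest.

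The passages paired the fractions of wild type cells, where samples of 1 passage deviated together (r of 0.341 to 0.676 for the 3 passages). In the other lines at least 1 passage was below the 0.1 set for pairing.

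The members, gene lists and tests were chosen with earlier results of these data known. Named genes had a call and a mean of at least 20 reads over all libraries of the fit. Except in the interaction, their groups did not overlap in CPM. They were ranked by size of change. Taken were 6 each way in nuclear and 4 in cytoplasmic AGO1/2/3 knockout, 6 each way between fractions, and 3 of the interaction. The members called in all 8 knockout comparisons, the 8 highest levels of each fraction, 4 pairs each way and a list of well-studied genes were added. PAXIP1-AS1 of that list had no gene of that symbol. A further gene of that list is not reported here.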

Additional observations from a re-analysis of the deposited data

Results flagged for a closer look

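The fraction by genotype interaction of the AGO1/2/3 knockout was set apart because the nuclear over cytoplasmic ratio itself differed between 2 genotypes by test. It called 56 of 525 antisense genes (10.7%), all with a lower ratio in the knockout, where 6.64% of all genes were lower and 10.3% higher. Of 2639 other lncRNA genes 272 were lower and 7 higher (10.3% and 0.265%). SEMA6A-AS1 (-2.35 on the log2 scale), A2M-AS1 (-2.30) and OR2A1-AS1 (-1.69) were the named genes. A2M-AS1 had 0.686, 0.456 and 0.586 TPM in nuclear wild type and 0.237, 0.181 and 0.279 TPM in nuclear AGO1/2/3 knockout libraries, and OR2A1-AS1 1.79, 2.04 and 2.25 against 0.818, 1.21 and 0.921 TPM. In the cytoplasm A2M-AS1 had 0.0736, 0.0413 and 0.0155 against 0.101, 0.0690 and 0.0726 TPM, and OR2A1-AS1 0.859, 1.68 and 1.05 against 1.56, 1.91 and 1.79 TPM. On the count scale the nuclear log2 changes were -1.10 ± 0.258 for A2M-AS1, called, and -0.72 ± 0.345 for OR2A1-AS1, not called. The cytoplasmic ones were 1.18 ± 0.461, not called, and 0.94 ± 0.274, called. Groups of 3 were not tested for outlying samples.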

How the results depend on the processing

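Of 274 recomputed counts of called antisense genes 232 stayed within 1.5 times the count reported, 38 were lower and 4 higher, and of 744 recomputed changes of named genes 743 kept direction and call, NUP153-AS1 being the exception. For the counts outside that range the cause was not tested, except where fewer genes or samples entered. With limma on log2(TPM + 1) 125 members were called in nuclear AGO1, 59 in cytoplasmic AGO1 and 76 in cytoplasmic AGO2 knockout RNA, and 98 in the interaction. Length-scaled counts gave 52 in nuclear AGO1 knockout RNA and 35 in the interaction. With the 2 groups alone in the fit, the counts were 43 in nuclear AGO1 knockout RNA and 7, 17, 86 and 63 in cytoplasmic AGO1, AGO2, double and triple knockout RNA. Without a low-count filter 22 were called in cytoplasmic AGO1 knockout RNA. A mean of 50 reads, which left fewer genes, gave 173 and 135 in nuclear double and triple, 22, 86 and 64 in cytoplasmic AGO1, double and triple knockout RNA, and 146, 188, 185, 159 and 184 between fractions in wild type, AGO1, AGO2, double and triple knockout cells. Members without an exon over an opposite exon gave 22, 22, 61 and 44 in the nucleus, 10, 12, 26 and 22 in the cytoplasm, 66, 75, 75, 61 and 70 between fractions and 12 in the interaction. Leaving out each library in turn gave 54 to 81, 90 to 116, 243 to 283 and 174 to 208 in nuclear AGO1, AGO2, double and triple knockout RNA, 15 to 39, 26 to 54, 114 to 137 and 72 to 124 in the cytoplasm, 278 to 303, 340 to 388, 339 to 365, 264 to 301 and 331 to 355 between fractions, and 36 to 65 in the interaction. The counts left by more than 1.5 times were 15, 16 and 21 in cytoplasmic AGO1 knockout RNA without passages 6, 7 and 8 of that line, 26 and 29 in cytoplasmic AGO2 knockout RNA without passages 8 and 9, and 36 in the interaction without passage 14 of nuclear AGO1/2/3 knockout RNA. With passage as a replicate block the fraction counts were 331, 373, 358, 307 and 349 and the interaction count 75. The block moved no count by more than 1.5 times. Outside wild type cells pairing by passage was uneven, with r from -0.0492 (AGO1/2/3 knockout, passage 11) to 0.471 (AGO1/2 knockout, passage 11). Of 184 recomputed correlations between partners 93 moved by more than leaving out single libraries does, and none changed sign. At the depth of the wild type libraries 767 members had 0 reads in all nuclear and 888 in all cytoplasmic ones.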
